A study of Homo sapiens with 8 samples.

Results

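Cells of the Ishikawa line, which was established from a human endometrial adenocarcinoma, were given dexamethasone alone or its vehicle, and the RNA of both was sequenced. Dexamethasone is a synthetic steroid that activates the glucocorticoid receptor. The comparison takes 4 of the 8 RNA libraries of the study: 2 of cells given 100 nM dexamethasone without estradiol, and 2 of cells given DMSO, the solvent, with neither hormone. The other 4 libraries come from cells given 10 nM estradiol alone and from cells given 10 nM estradiol together with 100 nM dexamethasone, here called the combination. All 4 groups were cultured for at least 4 days in medium without phenol red and with serum from which charcoal had stripped the steroids. The sample labels give 8 hr of treatment for each group, but the written protocol states 1 hour, and the sources used here do not settle which applies. All results are from 1 cell line. Whether the 2 libraries of a group stem from separate cultures is not stated, so p-values measure the spread between libraries, which may be technical. Of 26364 genes in the count table, 14201 were expressed well enough to be tested, and every one of them was part of the comparison.

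The glucocorticoid receptor rests in the cytoplasm in a complex with chaperones. Once a steroid binds, it moves to the nucleus, where it attaches to DNA as a dimer at palindromic response elements or is tethered to other transcription factors. Its best known targets restrain inflammation, reset the circadian clock, move sodium across epithelia and feed back on the receptor itself. In the endometrium, glucocorticoids act beside estrogen and progesterone, and their receptor recognizes nearly the same DNA element as the progesterone receptor.

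The 4 libraries held 18036620 to 21016257 counts assigned to genes. Replicates differed by more than sampling noise, at a chi-square of 18.3 (DMSO) and 26.3 (dexamethasone) per degree of freedom. RNA45S5, a gene of ribosomal RNA, made up 1.42% of the counts of dexamethasone replicate 2 and 3.23% to 4.03% of those of the other 3 libraries. Of the 12 endometrial epithelial markers 11 were tested, among them EPCAM at 337 to 386 CPM and PAX8 at 238 to 276 CPM, where CPM are counts divided by the library size and scaled. Of 22 leukocyte markers 4 were tested. The summed level of all 22 was 4.53 to 5.88 CPM, and CD3D, CD3E, CD163 and 7 others had no count in the 4 libraries. Summed levels of 42 estrogen targets, 32 of them tested, were 2589 and 2428 CPM in DMSO, and 3319 and 2864 CPM in dexamethasone replicates 1 and 2. The part of these library differences in the results below was not tested beyond leaving out libraries. NR3C1, which encodes the receptor, stood at 63.4 and 66.4 CPM in DMSO and at 59.95 and 58.9 CPM with dexamethasone, and was not called (log2 fold change -0.13 ± 0.10).

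Few genes were called with dexamethasone, and almost all of those were higher. A gene counts as called where the quasi-likelihood test of edgeR gave an adjusted p under 0.05. Each log2 fold change stands with the standard error of that fit (±), from n = 2 libraries in each group. Of 14201 genes 137 were called (0.965%), of which 129 were higher (0.908%) and 8 lower (0.0563%). An unadjusted p under 0.05 was reached by 1398 genes, 916 of them upward and 482 downward. Among the 129 higher genes, 23 had a log2 fold change above 2, 42 lay from 1 to 2, and 64 lay between 0.47 and 1. In each of the 137 genes, both dexamethasone libraries lay on the same side of both DMSO libraries, which was also true of 36.2% of all tested genes. Of 39 tested genes on a list of known glucocorticoid targets 15 rose and 0 fell (median log2 fold change 0.57, against 0.00 over all tested genes). So 122 of the 137 were not on that list. Called counts on the further lists below stand beside 0.965% of all tested genes. Single libraries weighed on the number of calls: 70 of the 137 were called again without DMSO replicate 1, 93 without DMSO replicate 2, 83 without dexamethasone replicate 1, 85 without dexamethasone replicate 2, and 60 in each of the 8 fits that left out a library.

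The 137 genes were sorted by the known function of their product into 14 classes once the calls were known, so the classes describe the response and are not tested. Transcription regulators were the most numerous named class with 18 genes. Intracellular signalling and the class of cytoskeleton, adhesion, membrane and matrix had 14 each, and metabolic enzymes together with metal-binding genes 12. Ion channels, pumps and their regulators had 11, and growth factor and cytokine ligands and receptors 10. Another 24 genes were of other function or could not be placed. By median log2 fold change, solute carriers (1.69, 5 genes) and glucocorticoid feedback and inflammation brakes (1.40, 4 genes) came first. Notch and Wnt genes (1.28, 3 genes) and ion channels and pumps (1.25) followed, and glycan enzymes (0.68, 4 genes) came last. Of the 5 solute carriers 1 was called without each library in turn. A list of 35 tested solute carriers had 1 higher and 0 lower (2.86%, beside 0.965% of all tested genes, median 0.08). At an unadjusted p under 0.05 that list had 6 genes upward and 3 downward.

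**Figure D1:**
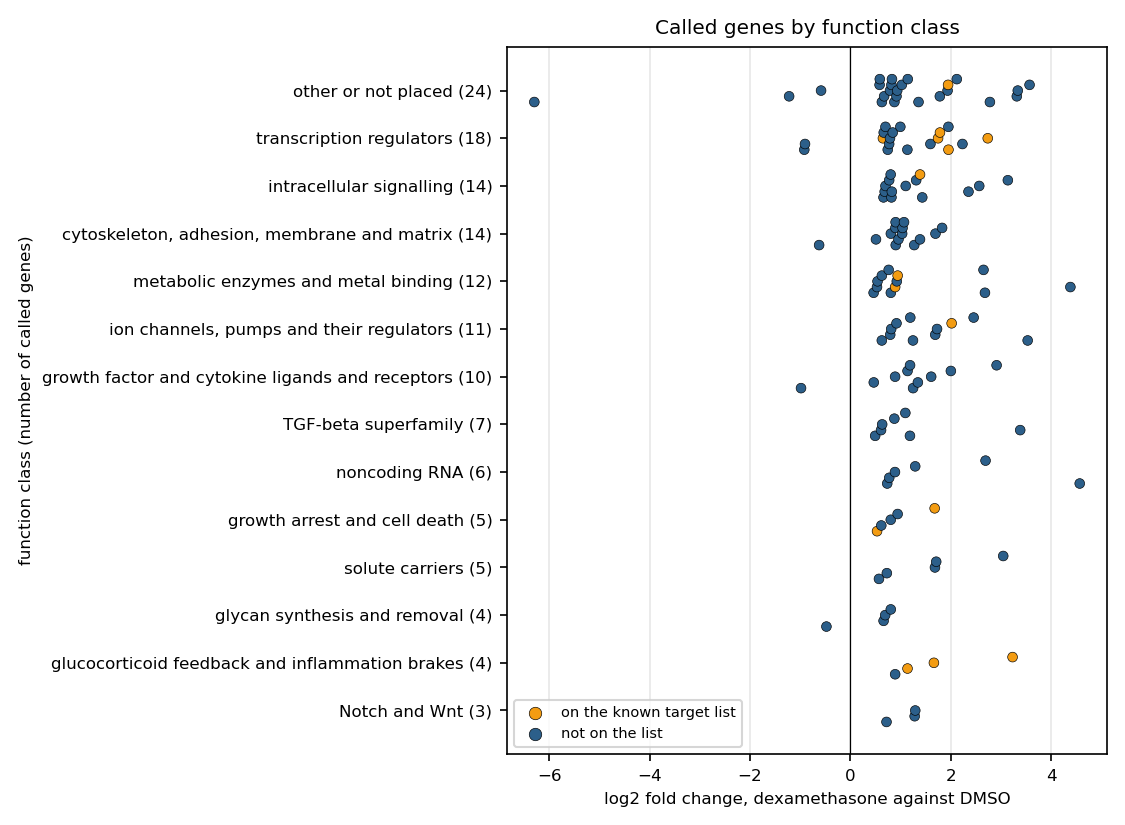
Log2 fold change of each of the 137 called genes (points) by function class, with the number of genes in parentheses and genes of the known target list in orange. Of the points 129 lie right of 0 and 8 left of it, and most of the increases above 2 belong to genes that are not on the known target list (20 of 23).

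The best known targets responded. TSC22D3, a leucine zipper protein that restrains NF-kB and AP-1, stood at 13.0 and 15.5 CPM in DMSO and at 119 and 150 CPM with dexamethasone (log2 fold change 3.23 ± 0.14). FKBP5, the co-chaperone that lowers the affinity of the receptor for its hormone, went from 92.1 and 84.8 to 259 and 303 CPM (1.67 ± 0.11). In both genes each dexamethasone library was well above each DMSO library. With NFKBIA, the cytoplasmic inhibitor of NF-kB (1.14 ± 0.10), and ZFP36, which promotes the decay of cytokine mRNAs (0.89 ± 0.12, not on the known target list), they make up the feedback and inflammation class. All 4 of these genes were called without each library in turn. Of 40 tested NF-kB and inflammatory mediators NFKBIA was the 1 gene called (2.5%, beside 0.965% of all tested genes, median 0.05). At an unadjusted p under 0.05 this list had 6 genes upward and 2 downward. Its genes IL6, CXCL2, CCL2, TNF, LTB, CFB and TLR4 had 0 counts in all 8 libraries, so nothing can be said of them.

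**Figure D2:**
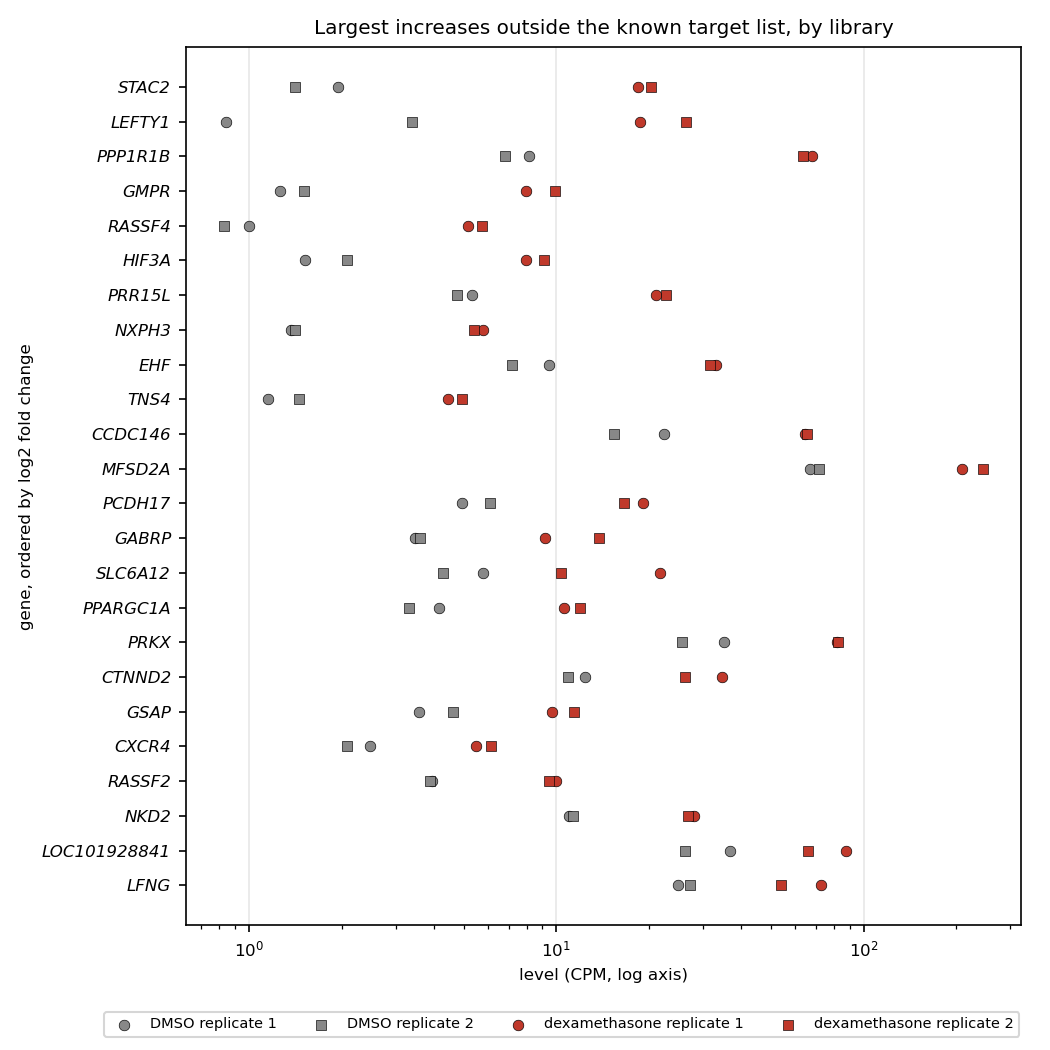
Level in each of the 4 libraries (CPM, log axis) of 24 of the 25 genes with the largest log2 fold changes outside the known target list and with a mean log2 CPM above 1, ordered by fold change from STAC2 (3.54) down to LFNG (1.28). Grey marks are DMSO and red marks dexamethasone, circles replicate 1 and squares replicate 2, and in every gene shown both red marks lie to the right of both grey marks.

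All 11 called genes of ion channels, pumps and their regulators rose, and STAC2 among them had the largest fold change of the called genes with a mean log2 CPM above 1. STAC2, an adaptor that binds L-type voltage-gated calcium channels, was at 1.94 and 1.41 CPM in DMSO and at 18.5 and 20.4 CPM with dexamethasone (log2 fold change 3.54 ± 0.19, adjusted p = 3.23e-06). Its libraries within a group lay close together, and the groups were far apart. SCNN1A, a known target that encodes the alpha chain of ENaC, the sodium channel of epithelia, rose by 2.02 ± 0.09. ENaC is the channel through which sodium enters an epithelial cell from its free side.

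Other members of the class carry other ions. GABRP, the pi subunit of the GABA-A receptor, a chloride channel known from the uterus, went from 3.46 and 3.60 to 9.20 and 13.7 CPM (1.69 ± 0.22). The dexamethasone libraries of GABRP differed from each other more than its DMSO libraries did, but all lay above DMSO. TMEM63A, a mechanically gated cation channel (0.82 ± 0.11), was also called in each fit that left out a library. Potassium channel genes KCNF1 (1.25 ± 0.21) and KCNJ3 (0.92 ± 0.16), the chloride channel family gene CLIC5 (1.20 ± 0.19) and LYNX1, a modulator of nicotinic receptors (0.63 ± 0.11), rose as well. Their calls were less firm: KCNJ3 and CLIC5 lost theirs without DMSO replicate 1 or dexamethasone replicate 2 (adjusted p up to 0.0926 and 0.0684), and KCNF1 and LYNX1 without either DMSO library or dexamethasone replicate 1 (up to 0.123 and 0.14). On a list of 28 tested channels and pumps 4 rose and 0 fell (14.3%, beside 0.965% of all tested genes), with a median log2 fold change of 0.32, and 12 had an unadjusted p under 0.05 upward and 0 downward, where all tested genes had 916 upward and 482 downward. SCNN1A shares 422 exon bases with LTBR on the opposite strand, so its counts may hold reads of that gene.

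Of the called genes of intracellular signalling, PPP1R1B had the largest fold change. It encodes DARPP-32, which blocks protein phosphatase 1 once protein kinase A has phosphorylated it. It was at 8.13 and 6.81 CPM in DMSO and at 68.1 and 63.5 CPM with dexamethasone (3.14 ± 0.14, adjusted p = 7.2e-07), with little spread within groups. PRKX, a catalytic kinase of the protein kinase A family, went from 35.3 and 25.6 to 81.8 and 82.6 CPM (1.43 ± 0.14). PRKX shares 816 bases at 95.2% identity with PRKY, and its counts are uncertain to that extent. On the list of 70 tested genes of protein phosphatase 1, cyclic AMP and G protein signalling 3 rose and 0 fell (median 0.03): PPP1R1B and the arrestin-domain adaptors ARRDC2 (1.39 ± 0.16) and ARRDC1 (0.78 ± 0.13). ARRDC1 was not called when DMSO replicate 1 or a dexamethasone library was left out (adjusted p up to 0.117).

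A pair of RASSF genes, whose proteins bind RAS-family GTPases and couple them to growth arrest, rose together. RASSF4 was at 0.997 and 0.827 CPM in DMSO and at 5.15 and 5.72 CPM with dexamethasone (2.57 ± 0.25), and RASSF2 went from 3.94 and 3.89 to 9.97 and 9.48 CPM (1.31 ± 0.15). All dexamethasone libraries were above all DMSO libraries, and both calls were made without each library in turn. RHOU, an atypical small GTPase, was the third gene called on the list of 63 tested regulators of RAS-like GTPases (0.69 ± 0.13, 3 higher and 0 lower, median 0.05). Without either DMSO library, dexamethasone replicate 1 or either combination library the call of RHOU was lost (adjusted p up to 0.144). Other signalling genes that rose were HOMER2, a scaffold that links receptors to calcium stores (0.82 ± 0.10), CAMK1D, a calcium and calmodulin-dependent kinase (0.70 ± 0.12), and TCL1B, a coactivator of AKT (1.10 ± 0.17). HOMER2 was called without each library in turn, whereas TCL1B was lost without dexamethasone replicate 2 (adjusted p = 0.0567) and CAMK1D without DMSO replicate 2 or either dexamethasone library (up to 0.102). Of 38 tested genes of the PI3K, AKT, mTORC1 and FOXO pathway 0 were called by edgeR, DESeq2 or limma-voom, with 7 at an unadjusted p under 0.05 (median -0.03).

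All 7 called genes of the TGF-beta superfamily rose, and most of them encode antagonists or binders of its ligands. LEFTY1, which blocks Nodal, stood at 0.840 and 3.403 CPM in DMSO and at 18.8 and 26.4 CPM with dexamethasone (3.39 ± 0.38). The DMSO libraries lay apart from each other, but both were far below the dexamethasone libraries. LEFTY2, its paralog, rose less (0.64 ± 0.13) and was not called once any 1 of the 8 libraries was left out (adjusted p up to 0.302). The pair shares 1203 bases at 96.4% identity, and their counts are uncertain to that extent. FSTL3, a secreted binder of activin, went from 12.5 and 13.8 to 29.6 and 30.4 CPM (1.19 ± 0.13). TSKU, a secreted leucine-rich protein that binds BMP and TGF-beta ligands, went from 23.5 and 27.5 to 56.9 and 52.4 CPM (1.10 ± 0.11). LDLRAD4, a membrane protein that keeps SMAD proteins from the receptor, rose by 0.88 ± 0.12. LEFTY1, FSTL3, TSKU and LDLRAD4 were called without each library in turn.

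A receptor and a ligand chain of this superfamily were called as well. TGFBR2, the receptor that binds TGF-beta itself, went from 43.7 and 38.7 to 58.7 and 57.4 CPM (0.50 ± 0.10), and INHBE, which encodes an inhibin beta chain, rose by 0.61 ± 0.11. TGFBR2 was not called once any 1 of the 8 libraries was left out (adjusted p up to 0.197), and INHBE was not called without DMSO replicate 1, either dexamethasone or either estradiol library (up to 0.156). The list of 39 tested genes of TGF-beta and Nodal signalling had 4 higher and 0 lower (10.3%, beside 0.965% of all tested genes). Its median was 0.03, so that most of its genes lay near 0. CTGF (0.53 ± 0.19, adjusted p = 0.354), which TGF-beta induces in many cells, did not pass the test.

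Genes of cell-to-cell signals rose mostly on the receptor side. NXPH3, a secreted ligand of neurexins, was at 1.36 and 1.41 CPM in DMSO and at 5.78 and 5.39 CPM with dexamethasone (2.00 ± 0.20). PDGFB, a chain of platelet-derived growth factor, went from 30.2 and 35.0 to 54.7 and 66.6 CPM (0.89 ± 0.12). These were the 2 genes of the class that were called without each library in turn. Among receptors, CXCR4, which binds the chemokine CXCL12, went from 2.47 and 2.09 to 5.49 and 6.12 CPM (1.35 ± 0.20), a call that did not hold without DMSO replicate 2 (adjusted p = 0.0589). RAMP1, a partner of the receptor of calcitonin gene-related peptide (1.14 ± 0.18), lost its call without DMSO replicate 1 or dexamethasone replicate 2 (up to 0.0619). CNTFR, the alpha receptor of ciliary neurotrophic factor (1.61 ± 0.28), lost it when any 1 of the DMSO or dexamethasone libraries was left out (up to 0.128), and IL18R1 (1.19 ± 0.21) without dexamethasone replicate 1, DMSO replicate 2 or either estradiol library (up to 0.139).

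Receptors of the vascular growth factors were among them at low levels. KDR had 7 counts in both DMSO libraries together and 53 in both dexamethasone libraries, a ratio of 7.77 with a 95% counting interval of 3.52 to 20.3. It was not called without DMSO replicate 2 (adjusted p = 0.0883). FLT4, the receptor for lymphatic growth factors, went from 1.57 and 2.04 to 4.86 and 3.76 CPM (1.25 ± 0.25) and was not called once any 1 of the 8 libraries was left out (up to 0.263). KDR is also an endothelial marker. Of the 14 endothelial markers 6 were tested, KDR was the 1 called, and EMCN, ROBO4 and PLVAP had no count in the 4 libraries. The summed level of all 14 was 53.1 and 65.1 CPM in DMSO and 65.4 and 67.3 CPM with dexamethasone. Most of that sum was EGFL7, at 42.5 and 56.6 CPM in DMSO and 52.3 and 55.2 CPM with dexamethasone. Whether cells of another type had a part in the KDR counts was not tested. The list of 60 tested receptor tyrosine kinases and their feedback genes had 3 higher (KDR, FLT4 and PDGFB) and 0 lower, with a median of 0.04.

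The 3 called genes of Notch and Wnt signalling rose, and all were called without each library in turn. JAG1, a ligand of Notch receptors, went from 204 and 212 to 319 and 368 CPM (0.72 ± 0.10). LFNG, which adds sugars to Notch receptors and so changes which ligands they answer to, went from 24.8 and 27.3 to 72.8 and 53.9 CPM (1.28 ± 0.17). Both genes were higher in either dexamethasone library than in either DMSO library. The Notch effector genes HES1 (-0.27 ± 0.10, adjusted p = 0.369) and HEY1 (0.89 ± 0.24, adjusted p = 0.174) did not pass, and the 26 tested Notch genes had a median of -0.09. NKD2, which antagonizes Wnt signals by binding Dishevelled, went from 11.02 and 11.3 to 28.1 and 26.8 CPM (1.29 ± 0.12). It was the 1 gene called among 35 tested Wnt genes (median 0.02).

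Of the 18 called transcription regulators 16 rose, and 11 of the 18 were called without each library in turn. EHF, an epithelial ETS factor, was at 9.50 and 7.20 CPM in DMSO and at 33.0 and 31.7 CPM with dexamethasone (1.96 ± 0.15). HIF3A, a hypoxia-inducible factor subunit with inhibitory splice forms, went from 1.52 and 2.09 to 7.99 and 9.15 CPM (2.24 ± 0.24). PPARGC1A, a coactivator that drives mitochondrial genes, went from 4.15 and 3.31 to 10.6 and 11.95 CPM (1.60 ± 0.18). In these 3 genes the lower dexamethasone library was above the higher DMSO library. VDR, the vitamin D receptor, went from 19.7 and 20.4 to 43.8 and 44.4 CPM (1.14 ± 0.10), with hardly any spread within either group.

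Several of these regulators are epithelial factors. SOX17, which is expressed in endometrial glands, went from 59.6 and 68.9 to 109 and 111 CPM (0.77 ± 0.11). TFCP2L1, a factor of kidney and gland ducts on the known target list, went from 13.3 and 12.7 to 61.8 and 39 CPM (1.96 ± 0.19), with a wide gap between its dexamethasone libraries. FOXJ1, the master regulator of motile cilia, rose by 0.85 ± 0.13 and lost its call without DMSO replicate 1 or dexamethasone replicate 2 (adjusted p up to 0.0689). The list of 40 tested epithelial and endometrial transcription factors had 4 higher (EHF, TFCP2L1, FOXJ1 and SOX17) and 1 lower (DMBX1). Its median was 0.10, and it was chosen with earlier results of these data known, so its calls are a description. SOX17 was also the 1 of 11 tested endometrial epithelial markers that edgeR called, while DESeq2 called 3 and limma-voom 1. At an unadjusted p under 0.05 there were 6 of them upward and 0 downward. The median of those markers was 0.43, and KRT19 (0.64 ± 0.13, adjusted p = 0.0616), KRT18 (0.43 ± 0.12) and KRT8 (0.43 ± 0.13) did not pass.

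Known targets filled much of the rest of the class. PER1, which represses the circadian clock, was at 18.3 and 19.7 CPM in DMSO and at 129 and 125 CPM with dexamethasone (2.74 ± 0.11). KLF9, a zinc finger factor that responds to steroid and thyroid hormones, rose by 1.75 ± 0.19, and BCL6, a transcriptional repressor, by 1.79 ± 0.16. CEBPD rose by 0.65 ± 0.12 and was not called once any 1 of the 8 libraries was left out (adjusted p up to 0.176). JADE2, a subunit of a histone acetyltransferase complex that is not on the known target list, went from 33.6 and 31.3 to 66.9 and 62.7 CPM (1.00 ± 0.10) and was called without each library in turn. ETS2 (0.67 ± 0.10) was lost without DMSO replicate 1 or dexamethasone replicate 2 (up to 0.0758).

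Metabolic genes rose in steps that do not belong to a single pathway. GMPR, which converts GMP back to IMP in purine salvage, was at 1.26 and 1.51 CPM in DMSO and at 7.99 and 9.93 CPM with dexamethasone (2.68 ± 0.21). GDA, which deaminates guanine to xanthine, went from 46.2 and 41.8 to 80.8 and 86.5 CPM (0.93 ± 0.10). Both act on guanine compounds, both were called without each library in turn, and they were the 2 called of 49 tested genes of nucleotide metabolism (median 0.05). The paralog GMPR2 (0.22 ± 0.10, adjusted p = 0.504) did not pass. PNMT, the enzyme that makes adrenaline from noradrenaline, had 4 counts in DMSO and 86 with dexamethasone, a ratio of 22.1 with a 95% counting interval of 8.32 to 82.9. The call of PNMT was also made without each library in turn.

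Lipid genes included a transporter with one of the clearest increases. MFSD2A, which carries lysophospholipids with omega-3 fatty acids into cells, went from 67.2 and 71.4 to 209 and 245 CPM (1.71 ± 0.11, adjusted p = 1.67e-05). AGPAT2, which makes phosphatidic acid on the way to triglycerides, went from 114 and 139 to 213 and 217 CPM (0.77 ± 0.11). The libraries of both genes were well apart by group, and both calls were made without each library in turn. FADS1, the delta-5 fatty acid desaturase (0.47 ± 0.09), was not called once any 1 of the 8 libraries was left out (adjusted p up to 0.152), and ACSS1, a mitochondrial acetyl-CoA synthetase (0.81 ± 0.16), lost it when any library but dexamethasone replicate 2 was left out (up to 0.172). Of 62 tested genes of lipid handling these 4 rose and 0 fell, with a median of 0.02. FADS1 shares 490 exon bases with FADS2 on the opposite strand, so its counts may hold reads of that gene. Among the other solute carriers, SLC6A12, a transporter of betaine and GABA, went from 5.77 and 4.28 to 21.8 and 10.3 CPM (1.69 ± 0.30). Its dexamethasone libraries differed more than 2 fold, and it was not called without dexamethasone replicate 1, DMSO replicate 2 or either estradiol library (up to 0.0903). SLC25A29, a mitochondrial carrier of basic amino acids (0.73 ± 0.12), was lost without DMSO replicate 1 or dexamethasone replicate 1 (up to 0.0887).

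Of the 14 called genes of the cytoskeleton, adhesion, membrane and matrix 13 rose. TNS4, a tensin that binds integrins at focal adhesions, was at 1.15 and 1.46 CPM in DMSO and at 4.43 and 4.94 CPM with dexamethasone (1.83 ± 0.20). PCDH17, a protocadherin, went from 4.93 and 6.08 to 19.2 and 16.6 CPM (1.70 ± 0.19), and CTNND2, a delta-catenin of adherens junctions, from 12.4 and 10.9 to 34.7 and 26.3 CPM (1.39 ± 0.15). All 3 had separate groups of libraries. KRT5, a keratin of basal epithelial cells, went from 83.0 and 98.8 to 167 and 215 CPM (1.07 ± 0.13), and MAL, a protein of apical membrane traffic, from 35.7 and 41.8 to 69.3 and 90.6 CPM (1.04 ± 0.14). TACC2, a centrosomal protein, rose by 0.91 ± 0.11. TNS4, PCDH17, CTNND2, KRT5, MAL and TACC2 were the 6 genes of the class called without each library in turn.

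Other members of that class depended on single libraries. EMP1, an epithelial membrane protein, went from 103 and 129 to 189 and 244 CPM (0.90 ± 0.14) and was lost without DMSO replicate 1 or dexamethasone replicate 2 (adjusted p up to 0.0708). The secreted metalloproteases ADAMTS8 (0.96 ± 0.14) and ADAMTS15 (0.51 ± 0.09) rose. ADAMTS8 lost its call without dexamethasone replicate 1 (0.0635), and ADAMTS15 lost it in all fits that left out a library except the one without dexamethasone replicate 2 (up to 0.143). KRT23 (0.90 ± 0.17) was lost without DMSO replicate 1, either dexamethasone or either estradiol library (up to 0.208). On the list of 48 tested keratins and junction genes KRT5 and KRT23 were called higher and 0 lower (median 0.02), and of 40 tested actin and mesenchymal genes 0 were called by edgeR, DESeq2 or limma-voom, with 6 at an unadjusted p under 0.05, all upward (median 0.08).

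Enzymes that build glycans also rose, in calls that were weak. MGAT3, which adds the bisecting sugar to N-glycans, rose by 0.81 ± 0.15, GYLTL1B, which extends the laminin-binding glycan of dystroglycan, by 0.70 ± 0.11, and ST3GAL4, a sialyltransferase, by 0.66 ± 0.12. MGEA5, which removes O-linked N-acetylglucosamine from intracellular proteins, was at 337 and 315 CPM in DMSO and at 233 and 236 CPM with dexamethasone, and fell by 0.48 on the log2 scale. OGT, which adds that sugar, was at 87.6 and 83.4 CPM in DMSO and at 118 and 112 CPM with dexamethasone (0.43 ± 0.09), and did not pass (adjusted p = 0.0616). GYLTL1B was lost without DMSO replicate 1 (0.0579), MGAT3 without DMSO replicate 1, either dexamethasone or either combination library (up to 0.226), ST3GAL4 when any library but DMSO replicate 2 was left out (up to 0.194) and MGEA5 without each of the 8 libraries (up to 0.256).

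Growth arrest genes were all higher where they were called. CDKN1C, the inhibitor of cyclin-dependent kinases p57, went from 14.4 and 21.7 to 52.8 and 63.4 CPM (1.68 ± 0.18). BTG2, an antiproliferative protein that acts on mRNA decay, went from 42.9 and 39.7 to 70.3 and 74.2 CPM (0.81 ± 0.10). Both were called without each library in turn. CDKN1A, the inhibitor p21, rose by 0.53 ± 0.10 and GADD45G, a stress sensor, by 0.94 ± 0.17. CDKN1A was lost when any library but DMSO replicate 2 was left out (adjusted p up to 0.202), and GADD45G without either DMSO library or dexamethasone replicate 1 (up to 0.125). On the list of 54 tested cell cycle regulators these 4 were higher and 0 lower (7.41%, beside 0.965% of all tested genes), with a median of 0.04. CCND1, cyclin D1, was at 725 and 633 CPM in DMSO and at 925 and 801 CPM with dexamethasone (0.35 ± 0.11) and did not pass (adjusted p = 0.283).

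Several genes with large increases have a product that is noncoding or little studied. TPRG1-AS1, a long noncoding RNA, had 3 counts in DMSO and 74 with dexamethasone, a ratio of 25.3 with a 95% counting interval of 8.34 to 126, and its call was made without each library in turn. It shares 147 exon bases with TPRG1 on the other strand, which was not called (0.60 ± 0.18). PRR15L, a proline-rich protein, went from 5.30 and 4.76 to 21.2 and 22.7 CPM (2.12 ± 0.14, adjusted p = 2.65e-05). CCDC146, a protein of centrioles and sperm flagella, went from 22.5 and 15.4 to 64.7 and 65.6 CPM (1.78 ± 0.15), and GSAP, the gamma-secretase activating protein, from 3.57 and 4.62 to 9.68 and 11.4 CPM (1.36 ± 0.19). The noncoding gene LOC101928841 went from 36.6 and 26.3 to 88.0 and 65.9 CPM (1.29 ± 0.18). All of these libraries were higher with dexamethasone than in DMSO. IER5L, a relative of an immediate early gene, was at 89.6 and 94.7 CPM in DMSO and at 175 and 164 CPM with dexamethasone (0.88 ± 0.12). PRR15L, CCDC146, GSAP, LOC101928841 and IER5L were called without each library in turn.

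Of the 8 genes that fell, 2 were called without each library in turn, NR1D2 and POTEF. NR1D2, the clock repressor REV-ERB beta, was at 52.9 and 46.3 CPM in DMSO and at 27.1 and 25.4 CPM with dexamethasone (-0.92 ± 0.13), so that PER1 rose and NR1D2 fell among 24 tested clock genes. POTEF, an actin-related gene, was at 75.9 and 99.8 CPM in DMSO and at 1.40 and 0.786 CPM with dexamethasone. It shares 3536 bases at 99.3% identity with POTEE and long stretches with other POTE genes, so the assignment of its counts is uncertain. DMBX1, a homeobox gene, went from 43.7 and 51.3 to 25.9 and 24.9 CPM (-0.90 ± 0.14) and lost its call without either dexamethasone library (adjusted p up to 0.0771). SOCS2, an inhibitor of growth hormone and cytokine signals, went from 9.66 and 9.19 to 4.82 and 4.71 CPM (-0.98 ± 0.15), which was not called when DMSO replicate 1 or a dexamethasone library was left out (up to 0.0635). FAM46C, which encodes a poly(A) polymerase, fell by 1.22 on the log2 scale (not called when any 1 of the DMSO or dexamethasone libraries was left out, adjusted p up to 0.144). FRMD6, an upstream component of Hippo signalling, fell by 0.62 (lost without DMSO replicate 1, either dexamethasone or either combination library, up to 0.126), and OSGIN1 fell by 0.58 (lost without each of the 8 libraries, up to 0.169). ERN1, a sensor of unfolded proteins, was at 8.03 and 7.73 CPM in DMSO and at 4.14 and 4.99 CPM with dexamethasone (-0.79 ± 0.16) and narrowly missed the threshold (adjusted p = 0.0575).

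Some lists, among them those of endometrial secretion and estrogen targets, had no called member in the fit over all 8 libraries. With 0.965% of all tested genes called, lists of these sizes can hold 0 called genes without being set apart by it. At an unadjusted p under 0.05, 916 of all 14201 tested genes lay upward and 482 downward. Of 37 tested genes of mucins, secretion and endometrial receptivity 0 were called by edgeR, DESeq2 or limma-voom, although 9 had an unadjusted p under 0.05, all upward, and the median was 0.19. Of 32 tested estrogen targets 0 were called by edgeR, 2 by DESeq2 and 0 by limma-voom, with 10 at an unadjusted p under 0.05, all upward, and a median of 0.24. The summed level of the whole estrogen target list was above that of both DMSO libraries in either dexamethasone library and highest in replicate 1. Without dexamethasone replicate 2 edgeR called DHRS3, PGR, THBS1, CA12 and GREB1 of the estrogen targets higher, and without DMSO replicate 2 it called KRT19. In the same fits 2 and 1 genes of secretion and receptivity were called, and 1 without dexamethasone replicate 1. Interferon-stimulated and antigen presentation genes had 0 of 23 called by the 3 tools, with 3 upward and 4 downward at an unadjusted p under 0.05 (median 0.14). On that list 8 of 36 genes, among them HLA-E, TAP1, TAP2, PSMB8 and PSMB9, are listed at 0 counts in all 8 libraries, as are PPP1R10 and IER3 of other lists, so nothing can be said of them. The 26 tested housekeeping genes had 0 called and 0 at an unadjusted p under 0.05 (median 0.08).

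The 129 higher genes were also followed in the libraries with estradiol. Those libraries are not part of the contrast above, but they entered its fit and so its estimate of the spread. There dexamethasone was added to estradiol, and the combination libraries were set against those of estradiol alone. Of the 129 genes 120 (93.0%) had a positive fold change in that comparison, against 50.6% of all tested genes, and in 113 (87.6%) both combination libraries were above both estradiol libraries, against 18.1% of all tested genes. By the test, 29 of the 129 were called higher there, where 34 of 14201 genes (0.239%) were called higher in all. The median log2 fold change of the 129 was 1.03 without estradiol and 0.50 with it, and 124 had a smaller fold change with it. The genes were picked by the first of these values, so the drop of the median is a description and was not tested. Of the 8 genes that fell, 5 had a negative fold change with estradiol and 0 were called lower.

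**Figure D3:**
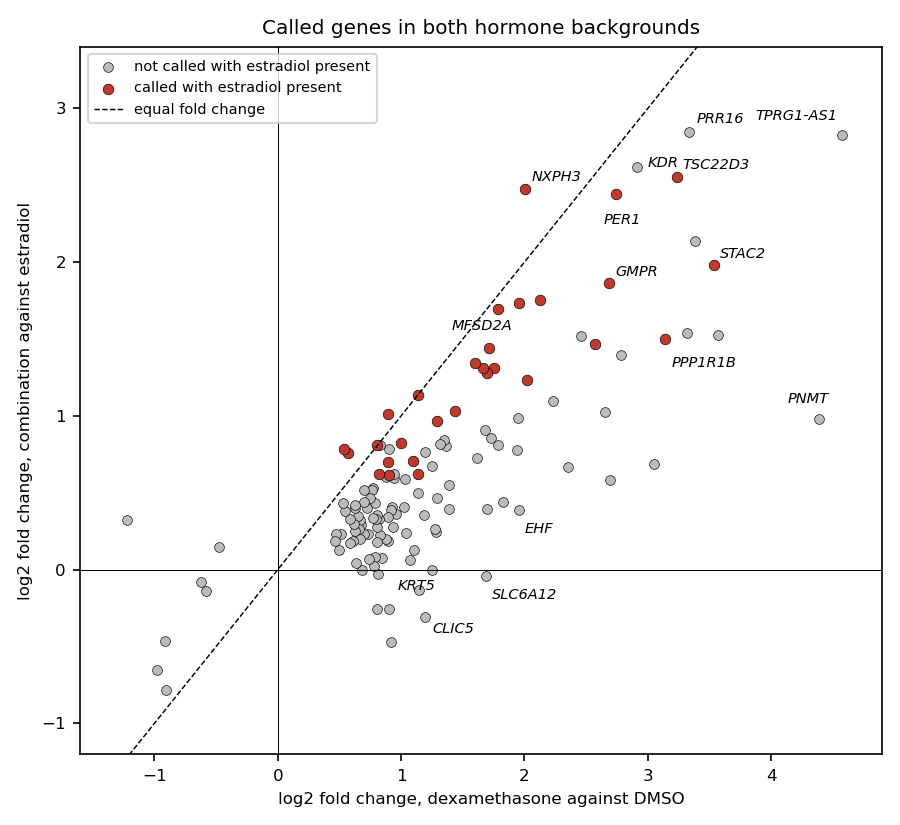
Log2 fold change of the called genes with dexamethasone against DMSO (horizontal) and with the combination against estradiol (vertical); red points were called in both, the dashed line marks equal fold changes, and POTEF (-6.30 and 0.13) lies outside the axes. Most points with a positive horizontal value lie between the dashed line and 0, and NXPH3 lies above the line.

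By class, all 4 feedback and inflammation genes were called higher with estradiol present, and so were 7 of 18 transcription regulators, 4 of 14 intracellular signalling genes, 2 of 11 ion channel and pump genes and 0 of 4 glycan enzymes. STAC2 was at 1.18 and 1.41 CPM with estradiol and at 5.15 and 5.21 CPM with the combination (log2 fold change 1.98, against 3.54 without estradiol). NXPH3 was at 0.845 and 0.883 CPM with estradiol and at 4.88 and 4.80 CPM with the combination (2.48), and MFSD2A went from 65.4 and 74.1 to 192 and 187 CPM (1.44). In all 3 genes the combination libraries lay above the estradiol libraries. SLC6A12 was already at 32.3 and 27.8 CPM with estradiol alone and at 30.6 and 27.8 CPM with the combination, and KRT5 was at 85.9 and 85.7 CPM and at 89.9 and 89.5 CPM. SLC6A12 and KRT5 thus had log2 fold changes of -0.04 and 0.06 there, but the difference between their effects with and without estradiol was not called. That difference was called for 3 genes (0.0211% of those tested): PPP1R1B, EHF and POTEF. EHF was at 13.9 and 13.6 CPM with estradiol and at 16.7 and 19.1 CPM with the combination, and PPP1R1B at 9.01 and 10.3 CPM and at 29.4 and 25.3 CPM.

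Some of the responding genes lie side by side on their chromosomes, in the gene order of the RefSeq annotation of GRCh38.p14. Of 135 called genes that could be placed, 12 had another called gene as the nearest tested neighbour (8.89%), whereas 1.92% of 13978 placed genes had a called neighbour. Within 3 places these were 17 genes (12.6%, against 5.37%). The loci described here were chosen after their values had been seen. On chromosome 17, PPP1R1B and PNMT lie with STARD3 (0.38 ± 0.12, adjusted p = 0.281) and TCAP (1.02 ± 0.39, adjusted p = 0.389) between them, and STAC2 lies 4 places before PPP1R1B. The 3 genes between STAC2 and PPP1R1B, namely FBXL20, MED1 and CDK12, had log2 fold changes of -0.13, -0.11 and -0.20. Beyond PNMT, ERBB2, which encodes the HER2 receptor kinase, was at 187 and 204 CPM in DMSO and at 238 and 248 CPM with dexamethasone (0.31 ± 0.09, adjusted p = 0.225). In the same stretch GRB7, an adaptor of such receptors, had a fold change of 0.78 ± 0.22 (adjusted p = 0.226). The 3 largest increases of the stretch were thus interspersed with genes that did not pass.

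**Figure D4:**
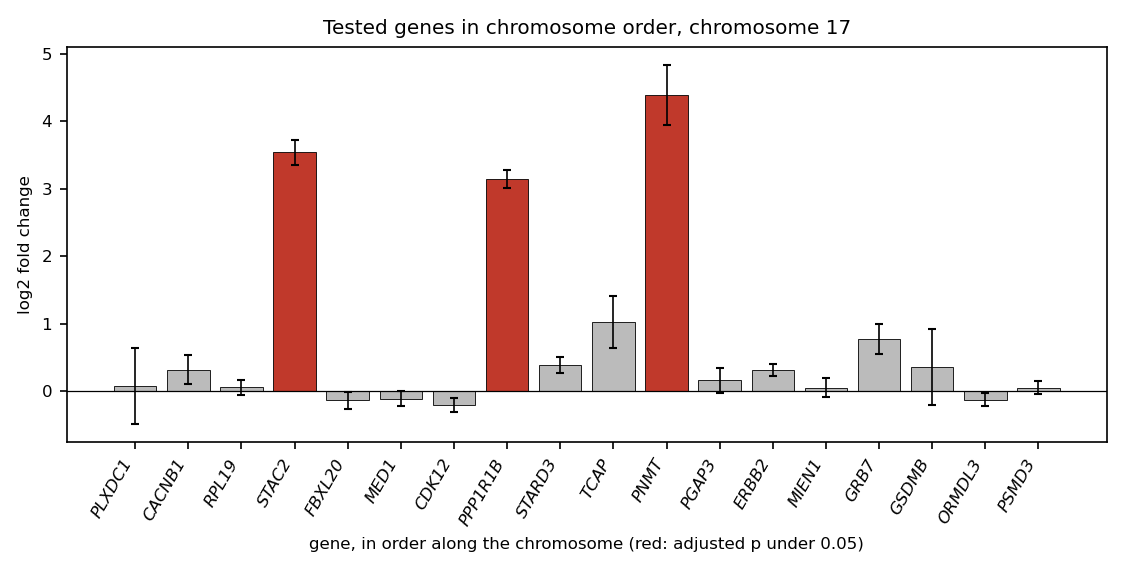
Log2 fold change (bars) ± standard error of the fit for the tested genes in their order along chromosome 17 around STAC2, PPP1R1B and PNMT, with called genes in red. The red bars reach 3.54, 3.14 and 4.39 with grey bars between them.

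Further neighbourhoods held pairs of called genes. On chromosome 1, TMEM63A (0.82 ± 0.11) and LEFTY1 are adjacent. On chromosome 9, AGPAT2 lies beside FAM69B (0.79 ± 0.14), which shares 1094 exon bases with SNHG7 on the other strand and was not called when DMSO replicate 1 or a dexamethasone library was left out (adjusted p up to 0.127). ADAMTS8 and ADAMTS15 are neighbours on chromosome 11, and TCL1B and the noncoding TUNAR (0.89 ± 0.16) on chromosome 14. TUNAR lost its call when any 1 of the DMSO or dexamethasone libraries was left out (up to 0.13). On chromosome 10, RASSF4 overlaps C10orf10, a gene known from fasting and autophagy, by 695 exon bases on opposite strands, and C10orf10 had 3 counts in DMSO and 37 with dexamethasone (ratio 12.7, 95% counting interval 4.01 to 64.2). The sources used here do not give whether counting used strand, and these reads could be of either gene. C10orf10 lost its call when any library but DMSO replicate 2 was left out (up to 0.214). CCDC146 and GSAP on chromosome 7 likewise share 138 exon bases.

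Few of the promoters that could be matched held a full response element. RefSeq promoters (GRCh38.p14), from 250 bases before to 50 after the start, were matched by symbol to 11256 tested genes, 90 of them called higher, and the first listed start of each gene was searched on both strands. The palindromic element, written GNACANNNTGTNC, was in 0.187% of all these promoters and in 1 of the 90, that of PPARGC1A. Its core, ACANNNTGT, was in 2.61% of all and in 4 of the 90 (4.44%): C1orf186, GRAMD3, TSC22D3 and PPARGC1A, where it lies inside the palindrome. The hexamer TGTTCT, 1 arm of the element, was in 8.72% of all and in 14 of the 90 (15.6%), and the AP-1 motif TGANTCA in 4.36% of all and in 3 of the 90 (3.33%). A match is not evidence of binding, and distant elements lie outside these windows. STAC2, PPP1R1B, PNMT, LEFTY1 and SCNN1A had no matched promoter. The windows below, read 5′ to 3′ on the strand of the gene, show the palindrome, 2 of the cores and 5 of the hexamers, mostly in genes described above, with the motif in capitals. AGAACA is TGTTCT read from the opposite strand.
PPARGC1A (palindrome, chr4:24473043-24473079, minus strand): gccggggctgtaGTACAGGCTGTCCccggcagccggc
TSC22D3 (core, chrX:107775975-107776007, minus strand): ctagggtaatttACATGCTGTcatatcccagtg
GRAMD3 (core, chr5:126423215-126423247, plus strand): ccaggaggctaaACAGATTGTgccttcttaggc
FKBP5 (TGTTCT motif, chr6:35728566-35728595, minus strand): caccactaccccAGAACAaactcctacctc
KDR (TGTTCT motif, chr4:55125789-55125818, minus strand): gttgctctgggaTGTTCTctcctgggcgac
KCNJ3 (TGTTCT motif, chr2:154698533-154698562, plus strand): cttgagtgcgggAGAACActttttaaagac
TACC2 (TGTTCT motif, chr10:121994572-121994601, plus strand): atgcacatttatAGAACAattccatgtgat
KRT5 (TGTTCT motif, chr12:52520345-52520374, minus strand): cctgctgagctcTGTTCTctccagcacctc

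Counted from 0 at the start, the core of TSC22D3 begins at -7, that of GRAMD3 at -182, and the TGTTCT motifs of FKBP5, KDR, KCNJ3, TACC2 and KRT5 at 0, -211, -150, -48 and 32. The palindrome of PPARGC1A begins at -162 from a start that lies in no transcript of the gene in GENCODE 29, while those of the other genes shown do lie in one. GRAMD3, a lipid-binding domain gene, rose by 0.67 ± 0.11, and its call did not hold without DMSO replicate 1 or dexamethasone replicate 1 (adjusted p up to 0.101).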

How the data were processed

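RNA of 8 libraries from 4 groups of Ishikawa cells was made into stranded mRNA libraries, per the labels' protocols. The authors deposited raw counts per gene. HISAT2 2.0.4 and featureCounts 1.5.1 (Subread) are named with the build hg19 per the submitters' processing notes, as is DESeq2 1.14.1. Which annotation and strand setting were used is not given in the sources used here. Columns were assigned by name. Both combination columns carry the number 1, so 1 of them was used as a combination library without a number.

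Tests on the counts used R 4.3.3 and edgeR 4.0.16 with limma 3.58.1: filterByExpr by group, TMM scaling and the quasi-likelihood test (glmQLFit, glmQLFTest) over all 8 libraries in 4 groups, with Benjamini-Hochberg adjustment over 14201 genes and a threshold of 0.05. The alternatives were DESeq2 1.42.0, limma-voom, other scalings and filters, fewer libraries and a replicate block. The test was checked on simulated data. CPM of single genes use TMM-scaled library sizes. Summed levels of a list use plain library totals and take in every list gene of the count table, tested or not. Ratios of genes with under 10 counts in a group have exact 95% intervals, which cover counting error only.

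The comparison, the gene lists and the rule for named genes were chosen with earlier results of these data known, and the function classes after the calls. The rule names the 25 largest increases outside the known target list whose libraries did not overlap between groups and whose mean log2 CPM was above 1, every gene that fell, up to 4 members of each list with the smallest p, and NR3C1, TSC22D3, PER1 and FKBP5. Other called genes are named within their class, and neighbours for their place. Some genes that the rule takes are left out. Gene order and promoters are from RefSeq (GRCh38.p14), and shared exons and near-identical transcripts (blastn 2.17.0, at least 300 bases at 95% identity) from GENCODE 29. No coordinates are given for the counts, whose build differs.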

Additional observations from a re-analysis of the deposited data

Results flagged for a closer look

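The effect of dexamethasone differed by the test of the difference itself, with estradiol minus without, in 3 genes. For PPP1R1B the difference was -1.64 ± 0.19 on the log2 scale (edgeR interaction, adjusted p = 0.0231): it rose by 3.14 without estradiol and by 1.498 with it. For EHF the difference was -1.57 ± 0.20 (adjusted p = 0.0462), with fold changes of 1.96 and 0.39. Both genes were higher in both treated libraries of either background. For POTEF the difference was 6.43 ± 0.37 (adjusted p = 4.08e-05). POTEF was at 75.9 and 99.8 CPM in DMSO, and between 0.786 and 2.11 CPM in the 6 libraries that received any hormone. DESeq2 called this difference for 14 genes and limma-voom for 3.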

How the results depend on the processing

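The number of genes called with dexamethasone against DMSO was 137. It was 185 with DESeq2, 253 without a filter on low counts, 63 with only the 4 libraries compared in the fit, and between 78 and 127 with 1 library left out. Other scalings, limma-voom and a filter at 1 CPM kept it within 1.5 times. No called gene changed direction under any of these. For the combination against estradiol the count was 39, against 70 with DESeq2, 132 without a filter, 151 with only 4 libraries, and between 10 and 68 with 1 library left out. For the interaction it was 3, and 14 with DESeq2. The cause of these moves was not tested, and the fits with 4 libraries moved the first count down and the second up. The share of promoters with TGTTCT was 15.6% also among genes with a log2 fold change above 1.

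With the replicate number as a block, over the numbered libraries of DMSO, dexamethasone and estradiol, 239 genes were called, 213 higher and 26 lower, all 137 among them. The labels do not say that a number marks a shared culture or day. Deviations of same-numbered libraries from their group means correlated, over 9937 genes, at 0.49 between DMSO and dexamethasone, 0.42 between DMSO and estradiol and 0.0907 between dexamethasone and estradiol. No paired analysis was possible for the combination because its columns carry 1 number. Genes under about 10 counts in DMSO, such as PNMT, KDR and TPRG1-AS1, have wide intervals at this depth.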
